A study of Mus musculus with 6 samples.

Results

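To ask how the genes of glycolysis and glucose uptake behaved in mouse embryonic stem cells (mESCs) that carry a degradable Pol II, the raw RNA-Seq counts of 10 genes were followed in every library. They were Slc2a1, Hk2, Pfkp, Aldoa, Gapdh, Pgk1, Eno1, Pkm, Ldha and Pdk1. They were chosen by name as 10 of the 39017 genes in the count tables, without use of their measured values, and all 10 passed the filter on low counts in both comparisons. In the pathway, Slc2a1 carries glucose across the plasma membrane, hexokinase (Hk2) and phosphofructokinase (Pfkp) spend ATP to commit the sugar, and aldolase (Aldoa) splits it. Gapdh, Pgk1, Eno1 and Pkm then carry the products to pyruvate with a gain of ATP and NADH. Ldha turns pyruvate into lactate, and Pdk1 restrains the oxidation of pyruvate in the mitochondria by inhibiting pyruvate dehydrogenase. Pluripotent cells are known for a high rate of glycolysis even where oxygen is plentiful, and the transcription factors HIF1A and MYC are textbook activators of many of these genes.

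The study asked what the loss of each RNA polymerase does to the 3D genome and to transcription, and used an auxin-inducible degron to remove the protein. The RNA-Seq libraries fell into 3 groups of 2, all of the V6.5 mESC line grown on irradiated feeder fibroblasts with serum and LIF. Per the study's methods, cells were taken for experiments after 2 passages of the feeders. The untreated group held Pol II degron cells, in which the Rpb1 subunit (gene Polr2a) was fused to a mAID degron tag and GFP and the plant receptor OsTIR1 was placed at the Rosa26 locus. They had 1 μg/ml doxycycline for 12 h and no auxin, and the auxin group had the same doxycycline with 500 μM auxin for 6 h. The wild-type group held V6.5 cells whose Pol II was not tagged, and whether these cells had doxycycline is not given in the sources used here. The degron cells came from a clone picked for efficient degradation, so that clone, tag, receptor, drug and the separate table in which the wild-type counts stand cannot be told apart in a comparison of wild-type with untreated cells. The study's methods call the replicates of its sequencing experiments biological, but neither they nor the labels say whether these were separate cultures, so p-values measure the spread between these libraries, which may be technical.

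The libraries held 14094022 to 15358714 counts each. Polr2a itself had 6623 and 6568 counts in the untreated, 10396 and 10663 in the auxin and 6866 and 7129 in the wild-type libraries. Its mRNA was higher after auxin (log2 fold change 0.57, SE 0.07, adjusted p = 0.00117 by edgeR's quasi-likelihood test) and did not pass the test in wild-type cells (0.10, SE 0.06, adjusted p = 0.172). Auxin acts on the protein, so these counts are no check of the depletion. The RNA extraction text of the wild-type records names retinas. The 8 retina markers summed to 0.916 and 1.466 CPM (counts scaled to a common library size by TMM) in the wild-type and to between 1.465 and 2.711 in the other libraries, with Crx and Rcvrn at 0, whereas 8 pluripotency markers summed to between 3017 and 5975. Of those 8, 5 were higher and 1 lower in wild-type cells (29.9% and 30.7% of all genes were). After auxin 4 were lower by edgeR (1.64% of all genes were) and 3 by DESeq2 (114 of 16128 genes were). The 8 feeder fibroblast markers summed to 171.8 and 169.2 CPM in the untreated, 188.7 and 217.5 in the auxin and 133.9 and 138.3 in the wild-type libraries, with 3 of 6 tested lower and 1 higher in wild-type cells and 1 of 6 higher after auxin, Col1a2 (log2 fold change 0.36, adjusted p = 0.0224). Their part in the results was not tested. In bulk libraries of this kind, fewer cells of a type and less RNA per cell cannot be told apart.

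The regions upstream of the genes were read for the core letters of 2 motifs that sit in textbook glycolytic promoters, ACGTG of the hypoxia response element (or CACGT on the other strand) and the E-box CACGTG, each occurrence of which also holds ACGTG. The 250 bases before each annotated start were taken from RefSeq on GRCm38.p6, and 17 start sites matched the 10 symbols. ACGTG or CACGT stood in 7 of these 17 windows, those of Slc2a1, Hk2, Aldoa, Pkm, Ldha and Pgk1, and in 16.6% of all 32851 windows of the same length. The E-box stood in 1 of the 17, an Ldha window, and in 6.02% of all windows. The variant core GCGTG (or CACGC) stood in 8 of the 17 and in 28.2% of all. Several windows of a gene overlap, so these counts are a description, and no binding was measured here.

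All 10 genes were called higher in wild-type cells, so the mRNA difference does not set apart the 4 genes whose windows are shown here. The 4 windows all hold ACGTG or CACGT, in capitals, and are shown 5′ to 3′ on the strand of the gene. Each ends at the base before the start. They lie at chr7:46845554-46845803 on the plus strand for Ldha, chr7:126799255-126799504 on the minus strand for Aldoa, chrX:106186850-106187099 on the plus strand for Pgk1 and chr6:82774455-82774704 on the minus strand for Hk2.
Ldha: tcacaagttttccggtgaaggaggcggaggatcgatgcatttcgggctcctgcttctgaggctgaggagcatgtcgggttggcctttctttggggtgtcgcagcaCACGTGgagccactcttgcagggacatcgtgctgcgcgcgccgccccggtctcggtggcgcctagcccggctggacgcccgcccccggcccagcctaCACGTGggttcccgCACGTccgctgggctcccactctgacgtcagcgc
Aldoa: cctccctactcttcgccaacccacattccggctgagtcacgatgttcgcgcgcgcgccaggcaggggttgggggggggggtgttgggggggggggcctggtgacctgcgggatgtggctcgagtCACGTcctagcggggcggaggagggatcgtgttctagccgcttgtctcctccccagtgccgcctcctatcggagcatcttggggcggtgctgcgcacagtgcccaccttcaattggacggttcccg
Pgk1: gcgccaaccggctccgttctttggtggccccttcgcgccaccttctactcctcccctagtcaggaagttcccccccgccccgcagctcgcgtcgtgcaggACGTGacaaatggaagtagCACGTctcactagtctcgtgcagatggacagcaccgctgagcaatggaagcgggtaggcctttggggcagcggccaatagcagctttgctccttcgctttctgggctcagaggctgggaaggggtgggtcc
Hk2: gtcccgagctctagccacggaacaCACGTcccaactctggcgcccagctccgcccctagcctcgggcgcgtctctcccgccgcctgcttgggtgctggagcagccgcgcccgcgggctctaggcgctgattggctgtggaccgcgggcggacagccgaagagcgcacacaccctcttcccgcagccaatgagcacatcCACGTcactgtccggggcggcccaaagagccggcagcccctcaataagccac
The Ldha window held 5 matches, 4 of them in its 2 E-boxes, each of which is read on both strands, and the windows of Pgk1 and Hk2 held 2 each. The Aldoa window shown held 1. Another window each of Ldha and Aldoa, a window of Pkm and the windows of Pdk1, Eno1, Gapdh and Pfkp held none. This says only that these letters were not in those stretches.

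The wild-type cells carried more mRNA of every one of the 10 genes than the untreated degron cells on the TMM scale, which assumes that most genes are alike between libraries. The difference ran from 4.39 times the untreated level for Ldha to 1.36 times for Slc2a1. All 10 passed the test as higher, where 29.9% of the 15778 genes tested were called higher and 30.7% lower, and 7 of the 10 passed with a log2 fold change over 1, where 7.12% of all genes did. With the counts of genes of shared sequence added, 9 of the 10 were called, since Gapdh moved from 1.84 to −0.05 (adjusted p = 0.693). The median log2 fold change was 1.35 over the 10 genes and −0.01 over all genes tested. Together the 10 genes took 0.528% and 0.537% of all counts in the untreated and 1.27% and 1.24% in the wild-type libraries.

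The gene for glucose entry had the smallest fold of the 10. Slc2a1 (GLUT1, ENSMUSG00000028645, chr4:119108711-119137983 in mm10) stood at 483 and 391.3 CPM in the untreated and 589.3 and 605.2 CPM in the wild-type libraries. The wild-type libraries lay above both untreated ones and close to each other, whereas the untreated pair was spread, with replicate 1 the higher. Its log2 fold change was 0.44 (SE 0.09, 95% interval 0.25 to 0.63, adjusted p = 0.000941), and 22.4% of all genes tested had a larger one.

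Both kinases that commit the sugar rose, Hk2 (chr6:82725025-82774454, minus strand) and Pfkp (chr13:6579768-6648777, minus strand). Hk2, which traps glucose as its phosphate, stood at 221.1 and 213.7 CPM in the untreated and 437.4 and 451.8 CPM in the wild-type libraries, a log2 fold change of 1.02 (SE 0.06, adjusted p = 9.34e-08). Pfkp, the platelet-type phosphofructokinase, stood at 183.3 and 234.9 against 344.6 and 347.5 CPM, a log2 fold change of 0.72 (SE 0.09, adjusted p = 4.97e-05). The 95% intervals of the fold changes, 0.90 to 1.15 and 0.51 to 0.92, overlapped.

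Aldoa (ENSMUSG00000030695, chr7:126795234-126800751, minus strand), the muscle and general aldolase, stood at 634 and 635.1 CPM in the untreated and 2634 and 2516 CPM in the wild-type libraries. Both wild-type libraries lay about 4-fold above both untreated ones, with a log2 fold change of 2.01 (SE 0.07, 95% interval 1.87 to 2.16, adjusted p = 1.41e-09). Only 1.37% of the genes tested had a larger one.

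Gapdh, Pgk1, Eno1 and Pkm, on the way to pyruvate, were each called higher in wild-type cells, where 29.9% of all genes tested were. Pgk1 (chrX:106187100-106203699), which makes the first ATP of the payoff phase, stood at 418.3 and 444.1 against 1240 and 1176 CPM, a log2 fold change of 1.48 (SE 0.06, adjusted p = 1.17e-08). Eno1 (chr4:150236721-150248879), the enolase found in most cells, stood at 981.1 and 1014 against 2349 and 2310 CPM, a log2 fold change of 1.22 (SE 0.06, adjusted p = 4.88e-08). Pkm (chr9:59656368-59679375), whose splice forms these gene-level counts do not separate, had the highest counts of the 10 in every library. It stood at 1779 and 1923 against 3567 and 3429 CPM, a log2 fold change of 0.91 (SE 0.07, adjusted p = 9.24e-07). Gapdh (chr6:125161715-125166467, minus strand) stood at 108.5 and 135.5 against 434.5 and 446.1 CPM, a log2 fold change of 1.84 (SE 0.09, adjusted p = 2.6e-08), but its value depended on how genes of like sequence were counted, as described under the counts of those genes.

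At the fate of pyruvate the differences were again large. Ldha (ENSMUSG00000063229, chr7:46841475-46855627) stood at 288.4 and 310.6 CPM in the untreated and 1340 and 1306 CPM in the wild-type libraries. Its log2 fold change of 2.14 (SE 0.07, 95% interval 1.99 to 2.28, adjusted p = 8.98e-10) was exceeded by 1.16% of the genes tested. Pdk1 (chr2:71873224-71903858) stood at 90.41 and 91.32 against 273.2 and 287.9 CPM, a log2 fold change of 1.62 (SE 0.06, 95% interval 1.48 to 1.76, adjusted p = 4.08e-09). Leaving out any 1 of the 4 libraries left all 10 calls in place.

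**Figure D1:**
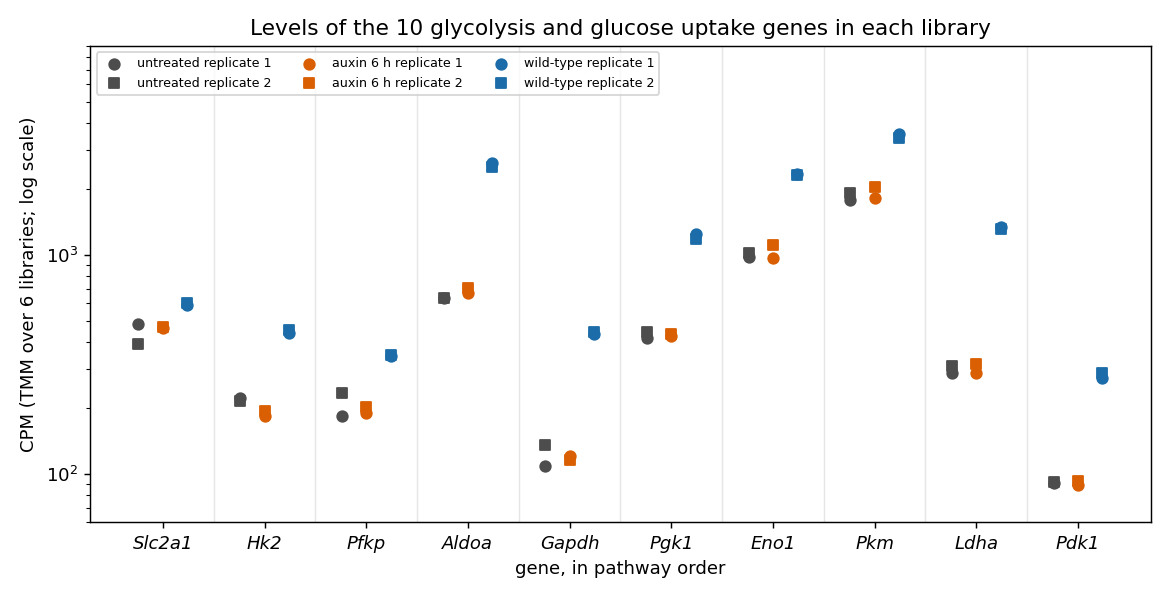
Level of each of the 10 genes in each library, in CPM scaled by TMM over all 6 libraries, on a log axis, with genes in pathway order and 1 point per library (circles for replicate 1, squares for replicate 2). On this scale the blue wild-type points stand at 1.36 times (Slc2a1) to 4.39 times (Ldha) the level of the grey untreated points, where 29.9% of all genes tested were called higher. The sign of the difference turns for 9 of the 10 genes when libraries are scaled to mitochondrial mRNAs, which shifts all genes alike by about −2.10. For Gapdh the difference is also lost when genes of shared sequence are added.

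These folds are relative to the scaling chosen. The 13 mRNAs encoded in the mitochondrial genome, where another polymerase acts, took 0.341% and 0.401% of the counts in the untreated and 1.53% and 1.5% in the wild-type libraries. With libraries scaled to these mRNAs, the median log2 fold change of all genes moved to −2.10. A factor per library moves every gene by about the same amount, so a gene whose log2 fold change was under that shift changes sign by construction, as 9 of the 10 did, and 7 of them were called lower and 0 higher by edgeR. Over all genes, 73 were called higher and 15235 lower on that scale, against 4713 and 4842 on the TMM scale. Of the 10 genes Ldha alone stayed above 0, at 0.04. Relative to the median of all genes on that scale, the 10 genes stood higher by 0.44 to 2.15, values that such a factor leaves nearly as they were. Which scaling is closer to the amount of mRNA per cell was not tested.

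After 6 h of auxin, by contrast, 0 of the 10 genes passed edgeR's quasi-likelihood test, where 2.56% of the 16128 genes tested were called higher and 1.64% lower. DESeq2 also called 0 of the 10, where it called 176 of all genes higher and 114 lower. By edgeR 1 of the 10, Hk2, had an unadjusted p under 0.05, where 3245 of the 16128 genes tested did. The median log2 fold change was 0.03 over the 10 genes and 0.00 over all genes tested. These values are shares of the mRNA in a library, so that an equal loss of all mRNAs would not appear in them. With 2 libraries a group, the widest 95% interval of the 10 genes ran from −0.29 to 0.13 (Pfkp), so that small changes of these genes may have been missed. Both comparisons share the untreated libraries, so each is given on its own.

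The genes for glucose entry and the kinases did not pass the test with all 4 libraries fitted. Slc2a1 stood at 462.8 and 466.3 CPM after auxin, between the 2 untreated libraries, with a log2 fold change of 0.11 (95% interval −0.09 to 0.30, adjusted p = 0.564). Hk2 stood at 182.6 and 193.8 CPM after auxin, under both untreated libraries, with a log2 fold change of −0.19 (SE 0.07, 95% interval −0.33 to −0.04, unadjusted p = 0.0145, adjusted p = 0.131 by edgeR). Pfkp stood at 189.5 and 201.7 CPM, within the untreated range, with a log2 fold change of −0.08 (adjusted p = 0.72).

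The untreated libraries stood apart from each other in Slc2a1, Pfkp and Gapdh, and fold changes moved with the library left out. Without untreated replicate 1, the log2 fold change was 0.27 for Slc2a1, −0.24 for Pfkp and −0.18 for Gapdh. Without untreated replicate 2, those 3 genes turned to −0.04, 0.11 and 0.13, and Hk2 was at −0.21. In these fits the lone untreated library is assumed to vary like the auxin libraries. Against counting error alone, the chi-square per degree of freedom over all genes compared was 5.719 for the untreated and 2.306 for the auxin pair. That assumption is therefore doubtful, and calls in these fits may rest on too small a spread, so they are not given by gene here. Hk2 was called lower by edgeR with all 3 groups in 1 fit (−0.21, adjusted p = 0.0387), where 668 of 16467 genes were. With a replicate block it was called lower too (−0.19, adjusted p = 0.0411 by edgeR), where 849 of 16128 genes were. In the main fit 264 genes were called lower.

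The later enzymes did not pass the test with all 4 libraries fitted. Aldoa stood at 669.8 and 706.9 CPM, above both untreated libraries, with a log2 fold change of 0.14 (95% interval −0.02 to 0.29, adjusted p = 0.316). Ldha stood at 289.2 and 317.2 CPM and Pdk1 at 88.69 and 92.49 CPM, each overlapping the untreated libraries, with log2 fold changes of 0.04 and 0.01 (adjusted p = 0.84 and 0.934). Gapdh, Pgk1, Eno1 and Pkm overlapped too, with log2 fold changes of −0.04, 0.01, 0.07 and 0.08 and adjusted p-values of 0.877, 0.94, 0.707 and 0.656. Scaled to mitochondrial mRNAs, which moved the median of all genes to −0.17, all 10 values were below 0 and, over all genes, 167 were called higher and 52 lower against 413 and 264 on the TMM scale.

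**Figure D2:**
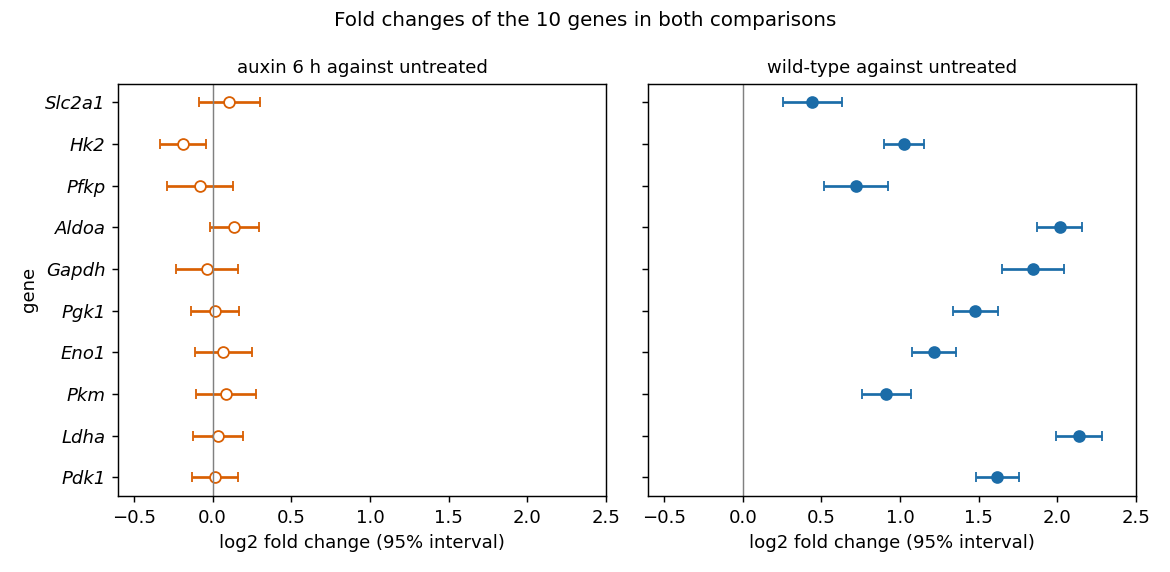
Log2 fold change (points) with its 95% interval (bars) for each of the 10 genes, after 6 h of auxin (left) and in wild-type cells (right), each against the same 2 untreated libraries, under TMM scaling, with filled points for genes that passed the test. All 10 right-hand points are filled, between 0.44 and 2.14, and no left-hand point is, the lowest being Hk2 at −0.19. Scaled to mitochondrial mRNAs, which shifts all genes alike, 9 of the 10 wild-type values and all 10 auxin values are below 0, and with genes of shared sequence added the wild-type value of Gapdh is −0.05.

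Compared between genes per kilobase of exon (union of exons, GENCODE vM21 on mm10), the levels in untreated cells spanned a wide range. They ran in the order Pkm, Aldoa, Pgk1, Eno1, Slc2a1, Ldha, Hk2, Gapdh, Pfkp and Pdk1. Gapdh is placed here by the counts assigned to it alone. Those were 13% and 13.9% of its counts joined with genes of shared sequence in the untreated libraries, so its place is uncertain. Pkm stood at 370.1 ± 20.4 CPM per kb (SD, n = 2), Aldoa at 218 ± 0.265 and Pdk1 at 11.68 ± 0.0831. Pgk1 and Eno1, at 192.2 ± 8.14 and 185.4 ± 4.31 CPM per kb, differed by less than the spread between libraries. In wild-type cells the order opened with Aldoa at 884.5 ± 28.7 CPM per kb and Pkm at 699.4 ± 19.6, and Ldha, at 399.7 ± 7.34, stood above Slc2a1 at 170.4 ± 3.21 and next to Eno1 at 433.1 ± 5.19. The order depended on the length used, since with the longest transcript Pkm, Eno1 and Aldoa led in untreated cells with 761.1, 492.1 and 409.6 CPM per kb.

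Each of these enzymes shares its step with isozymes, and the shares below are of the summed CPM per kb of a step, given in the order of the 2 untreated, 2 auxin and 2 wild-type libraries. Slc2a1 made 28.3%, 25%, 28.6%, 28.7%, 46.1% and 46.5% of the glucose entry step, the rest being Slc2a3 (GLUT3). Slc2a3 fell in wild-type cells from 36200 and 35252 to 20165 and 20623 counts (log2 fold change −0.80, SE 0.07, adjusted p = 1.25e-06) while Slc2a1 rose. Ldha made 44.8%, 39.1%, 45.8%, 48.7%, 63.3% and 63.4% of lactate dehydrogenase, with Ldhb, which also rose (0.86, SE 0.11, adjusted p = 4.27e-05), as the remainder. Pdk1 made 41%, 41%, 41.4%, 43.8%, 57% and 57.7% of the pyruvate dehydrogenase kinases.

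Phosphofructokinase went the other way for the listed gene. Pfkp made 28.6% and 33.8% of the step in the untreated and 19.6% and 20.2% in the wild-type libraries, and the liver form Pfkl made 38.5% and 37.1% against 60.7% and 59.7%. Pfkl rose from 1763 and 1868 to 7553 and 7333 counts (log2 fold change 2.05, SE 0.06, adjusted p = 8.24e-10), more than Pfkp and Pfkm (0.73, adjusted p = 3.57e-06). Aldoa made 97.8% to 99.2% of aldolase in every library, although Aldoc rose from 93 and 89 to 945 and 918 counts (3.36, SE 0.10, adjusted p = 5.23e-10). Hk2 made 77.7% to 82.7% of the hexokinase sum with Hk1, which also rose (1.32, SE 0.08, adjusted p = 9.02e-08).

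Among Eno1, Eno2 and Eno3, Eno1 made 85.9% in both untreated and 95.1% in both wild-type libraries. With Eno1b, which shares sequence with Eno1, counted in the step as well, Eno1 made 58.6% and 58.2% in the untreated and 52.3% and 61.6% in the wild-type libraries, so that no rise of its share was seen. The neuronal form Eno2 fell from 1102 and 1193 counts to 199 and 186 in wild-type cells (log2 fold change −2.56, SE 0.09, adjusted p = 1.46e-09), and Eno3 rose (0.52, adjusted p = 2.22e-04). Eno2 was also the gene of the enzyme list that passed the test after auxin, at 1022 and 974 counts (−0.30, SE 0.07, adjusted p = 0.0336), a call that DESeq2 did not make. These shares do not depend on the scaling of libraries. They move with the length used, and with the longest transcript Ldha made 55.2% and 49.3% of its step in the untreated and 72.3% and 72.4% in the wild-type libraries.

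**Figure D3:**
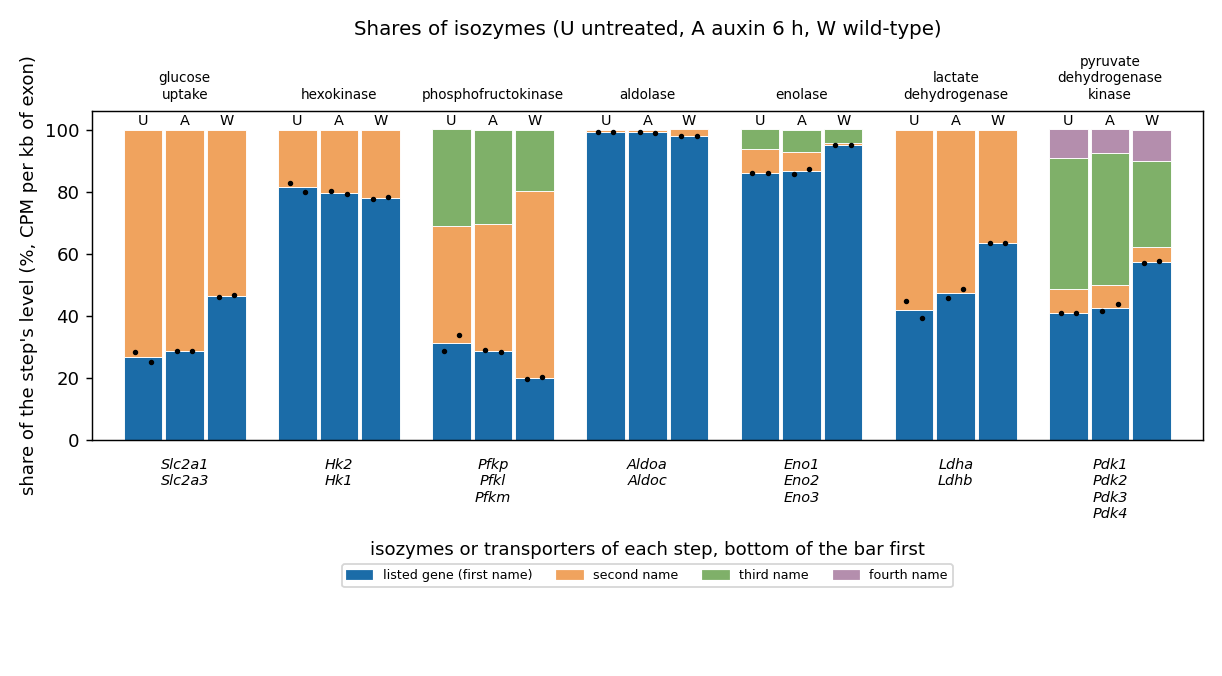
Share of each isozyme or transporter in the summed CPM per kb of its step (vertical axis, %), as the mean of 2 libraries, for untreated (U), auxin 6 h (A) and wild-type (W) cells, with black dots for the share of the listed gene in each library. The blue share of Slc2a1, Ldha and Pdk1 is larger in wild-type than in untreated cells, at 46.1% and 46.5% for Slc2a1, and that of Pfkp is smaller, at 19.6% and 20.2%. The enolase bars leave out Eno1b, with which Eno1 made 58.6% and 58.2% in the untreated and 52.3% and 61.6% in the wild-type libraries.

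Beyond the 10 genes, related lists were read beside the 29.9% of all genes called higher and 30.7% called lower in wild-type cells, and the 2.56% and 1.64% after auxin. An unadjusted p under 0.05 by edgeR was found for 10199 of 15778 genes in wild-type cells and 3245 of 16128 after auxin. Of the same genes DESeq2 called 3729 higher and 3703 lower in wild-type cells, and 176 and 114 after auxin. Of 25 isozymes and other glycolytic enzymes 22 were tested, and 14 were called higher and 4 lower in wild-type cells, with a median log2 fold change of 0.68. Tpi1, triose phosphate isomerase, rose by 1.70 (SE 0.06), Pgam1, phosphoglycerate mutase, by 1.02 (SE 0.06) and Gpi1, glucose phosphate isomerase, by 0.98 (SE 0.06). Of the same list Hkdc1, Pgam2 and Eno1b were also called higher (1.68, 1.41 and 1.60) and Eno4 and Ldhd lower (−1.35 and −0.49). Gapdhs, Pklr and Ldhc did not pass the test, at −0.49, −0.40 and 0.63. Gpi1 and Pgam1 were named after their values were seen. After auxin edgeR called 0 of the list higher and 1 lower, Eno2 (3 and 2 at an unadjusted p under 0.05).

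Of the 15 glucose and lactate transporters 11 were tested in wild-type cells, 3 higher and 4 lower, beside 29.9% and 30.7% of all genes. Slc2a3 was among the lower ones, as given for its step. Slc16a3 (MCT4), which exports lactate, rose from 664 and 614 to 2676 and 2693 counts (log2 fold change 2.08, SE 0.07, adjusted p = 1.61e-09). Slc16a1 (MCT1) and Bsg, the chaperone of both, rose by 0.56 and 0.38. After auxin edgeR and DESeq2 called 0 of the 10 transporters tested, and 1 was higher and 1 lower at an unadjusted p under 0.05.

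The pyruvate dehydrogenase list, which Pdk1 acts on, was more mixed. Of its 14 genes 6 were higher and 3 lower in wild-type cells, beside 29.9% and 30.7% of all genes, and after auxin 0 were called by edgeR, also at an unadjusted p under 0.05, or by DESeq2. The kinases Pdk4 and Pdk3 rose by 1.24 and 0.54, the phosphatase Pdp2 by 0.76 and the E2 subunit Dlat by 0.46. The lower genes, named after their values were seen, were the E1 subunits Pdhb and Pdha2, at −0.42 and −2.43, and the pyruvate carrier Mpc2, at −0.44. Pdha2 had few counts, 36 and 52 in the untreated and 9 and 7 in the wild-type libraries. Its relative Pdha1, also named after its values were seen, had 2569 and 2742 against 2816 and 2703 counts. Pdha1 did not pass edgeR's test (0.07, adjusted p = 0.37). The median of the list was 0.22.

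The enzymes that set fructose 2,6-bisphosphate, an activator of phosphofructokinase, and brakes on glucose use gave 2 higher and 4 lower of 7 in wild-type cells, beside 29.9% and 30.7% of all genes. Pfkfb2 and Pfkfb3 fell by 1.06 and by 0.62 on the log2 scale. Txnip, which holds back glucose uptake, rose from 5703 and 7493 to 15765 and 15395 counts (log2 fold change 1.25, SE 0.10), and its relative Arrdc4 rose by 0.50. After auxin Txnip fell to 5047 and 4707 counts (−0.54, SE 0.10, adjusted p = 0.0116), the 1 gene of this list that edgeR called and that DESeq2 did not.

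Gluconeogenesis runs the reversible steps of glycolysis backward and uses enzymes of its own, those listed here, for the rest. The pentose phosphate pathway branches off glycolysis to make NADPH and ribose. Of 5 gluconeogenic genes tested, edgeR called 0 higher and 3 lower in wild-type cells (1 higher at an unadjusted p under 0.05, and 0 higher and 2 lower by DESeq2), with Pck2 at −0.77 and G6pc3 at −0.43. Of 10 pentose phosphate genes, 4 were higher and 1 lower (29.9% and 30.7% of all genes were), with transketolase (Tkt) at 0.77, Rpia at 0.62, Pgd at 0.42 and Pgls at −0.35. After auxin 0 genes of either list were called by edgeR or DESeq2, and 0 and 1 passed at an unadjusted p under 0.05.

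Of 10 components of the HIF pathway, 4 were higher and 3 lower in wild-type cells, counts near the 29.9% and 30.7% of all genes. Hif1a itself stood at 2072 and 1997 counts in the untreated and 1578 and 1678 in the wild-type libraries (log2 fold change −0.31, SE 0.06, adjusted p = 0.00144). Epas1 (HIF2A) and the prolyl hydroxylase Egln3 rose by 1.64 and 1.87, Hif3a rose by 0.83 and Arnt2 fell by 1.17 on the log2 scale. After auxin Hif1an, which hydroxylates HIF, was lower (−0.27, adjusted p = 0.048), a call that DESeq2 did not make. Of 20 HIF targets outside glycolysis that were tested, 8 were higher and 6 lower in wild-type cells, beside the same shares of all genes, with a median of 0.07. Bnip3, a mitophagy receptor, Ak4, a mitochondrial adenylate kinase, Fam162a and the collagen hydroxylase P4ha1 rose by 1.92, 1.61, 1.56 and 1.54, while Vegfa, the angiogenic growth factor, and P4ha2 fell by 0.72 and by 1.34. After auxin, where 2.56% of all genes were called higher, edgeR called 3 higher and 0 lower (5 and 1 at an unadjusted p under 0.05, and 2 and 0 by DESeq2), namely Ndrg1 (0.50, adjusted p = 0.0232), Pdgfb (0.44, adjusted p = 0.0339) and Adm, which had 29 and 30 counts untreated and 94 and 112 after auxin (1.70, adjusted p = 0.00207). Hif1a, Vegfa, P4ha2 and Adm were chosen for naming after their values were seen.

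Of 9 regulators of the Myc and ChREBP families and Lin28, 2 were higher and 2 lower in wild-type cells, beside 29.9% and 30.7% of all genes, and after auxin 0 were called by edgeR or DESeq2 (1 lower at an unadjusted p under 0.05). Mycn rose from 333 and 364 to 2910 and 2852 counts (log2 fold change 3.06, SE 0.07, adjusted p = 1.72e-10). Lin28a, an RNA-binding pluripotency factor, rose by 0.24, Lin28b fell by 0.39 and Max, the partner of Myc proteins, fell by 0.19 on the log2 scale. Myc had 193 and 152 against 202 and 161 counts, a log2 fold change of 0.08 (SE 0.17, adjusted p = 0.686).

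**Figure D4:**
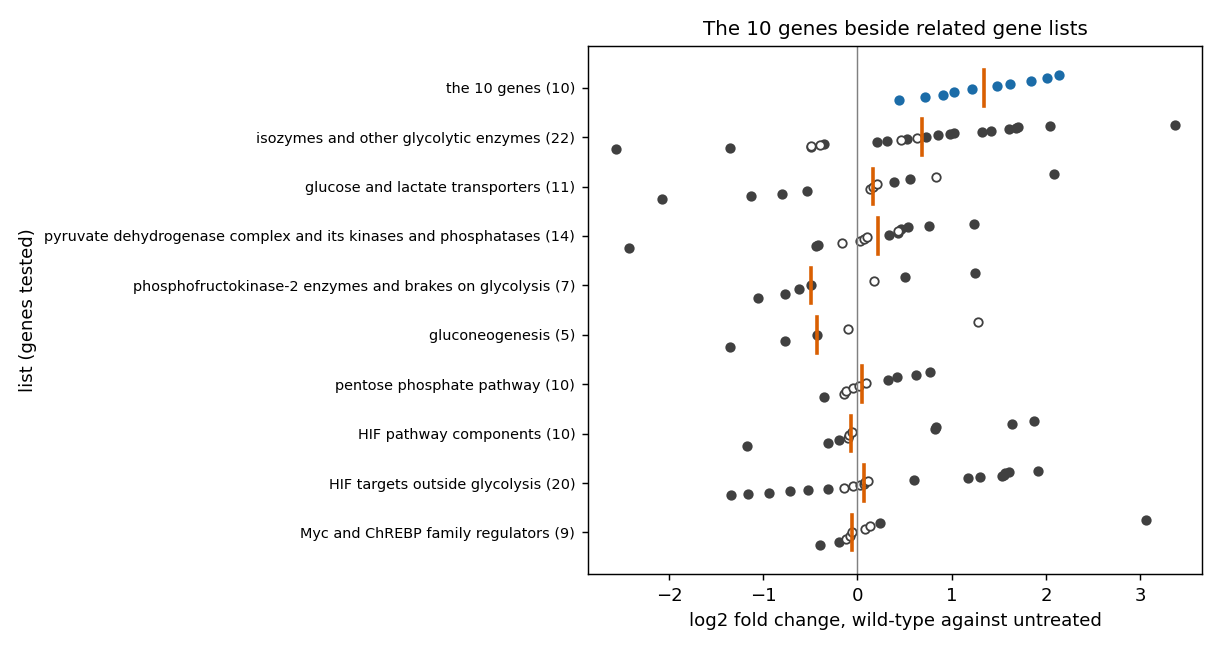
Log2 fold change between wild-type and untreated cells (horizontal axis) of each gene tested, by list (number tested in brackets), with filled points for genes that passed the test, open points for those that did not, and orange bars at the median. The 10 genes lie between 0.44 and 2.14 with a median of 1.35, and the isozymes and other enzymes have a median of 0.68. Scaled to mitochondrial mRNAs, the median of all genes moves from −0.01 to −2.10 and 9 of the 10 genes turn negative with it, and with genes of shared sequence added Gapdh is at −0.05.

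Several of the 10 genes have near-identical copies in the genome, and reads from such stretches can be counted for a copy or dropped. The transcripts of Slc2a1, Hk2, Pfkp, Aldoa and Pdk1 had no 100-base stretch in common with a transcript of another gene. Of the stretches of Ldha 0.59% were shared, of Pkm 12.3%, of Eno1 20.4%, of Gapdh 20.9% and of Pgk1 51.6%. For Pgk1 and Ldha the sharing genes held under 1% of the joint counts over the 6 libraries (0.865% and 0.25%), for Eno1 21.5% and for Gapdh 75.1%. Of the 3 genes that share stretches with Pkm, 0 were in the count tables, so its counts could not be checked in this way.

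The value of Gapdh, often used as a reference gene, depended on which genes were counted with it. Of its joint counts with 75 genes of shared sequence, 13% and 13.9% were assigned to Gapdh in the untreated, 13.8% and 12.4% in the auxin and 55.4% and 45.9% in the wild-type libraries. Joint counts were 11974 and 14159 in the untreated, 13834 and 14310 in the auxin and 11133 and 13933 in the wild-type libraries, which overlap. With the joint counts in place of its own, Gapdh had a log2 fold change of −0.05 in wild-type cells (adjusted p = 0.693) and 0.00 after auxin. Most of these counts fell on Gm7336 and Gm5559, named after their values were seen. Gm5559 had 5052 and 5656 counts in the untreated and 784 and 799 in the wild-type libraries (log2 fold change −2.75, SE 0.07, adjusted p = 3.19e-10), and Gm7336 had 4474 and 5715 against 2155 and 4073 (−0.70, SE 0.21, adjusted p = 0.0125). The call of Gapdh as higher in wild-type cells is therefore uncertain.

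Eno1 kept its call. Its sharing genes, Eno1b and Gm4735, held 3225 and 3502 counts in the untreated and 11825 and 8489 in the wild-type libraries, and with them added the log2 fold change of Eno1 was 1.30 in place of 1.22. That of Pgk1 stayed at 1.48. Genes also overlap some of the 10 on the opposite strand, namely Gm12867 and Gm12868 for Slc2a1, Gm17034 for Hk2, Pitrm1 for Pfkp, Fam57b for Aldoa and Iffo1 for Gapdh, and whether counting used the strand of a read is not given in the sources used here.

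**Figure D5:**
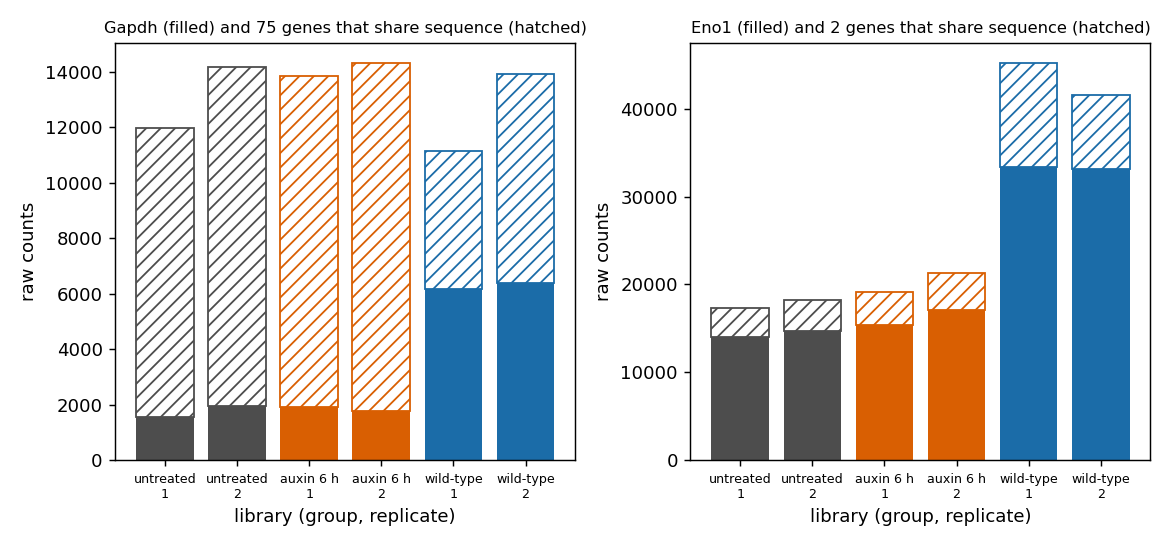
Raw counts per library (vertical axis, from 0) of Gapdh with 75 genes that share a 100-base stretch with it (left) and of Eno1 with 2 such genes (right), the named gene filled and the sharing genes hatched. The filled Gapdh part grows from 1556 and 1971 counts in untreated to 6165 and 6389 in wild-type cells while the whole bar does not, whereas for Eno1 both parts grow.

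The genes whose levels over the 6 libraries ran most like the mean of the 10 were Dhcr7 and Mvd, enzymes of cholesterol synthesis, Epcam, an adhesion molecule of epithelial and pluripotent cells, Arl5a and Uri1. Their Pearson correlations were 0.99978 for Dhcr7, 0.99975 for Epcam, 0.9996 for Mvd, 0.99954 for Arl5a and 0.99944 for Uri1, among 10959 genes compared on log2(CPM + 1). The 6 points are 2 libraries each of 3 groups, and the wild-type pair alone stands apart, so these values mostly say that a gene was higher in wild-type cells and alike in the other libraries. Dhcr7, for example, had 354 and 393 counts in the untreated, 410 and 432 in the auxin and 1735 and 1739 in the wild-type libraries.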

How the data were processed

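PolyA RNA-Seq reads were aligned by the authors to mm10 with HISAT2 2.1.0 and counted per gene with salmon and htseq-count, per the labels and the methods of the study. The annotation release, the strand setting and the treatment of reads that match several places are not given in the sources used here. The authors deposited raw, whole-number counts, not normalized, in a table of the degron and a table of the wild-type libraries. Their log2 fold changes, linear folds and adjusted p-values were not used, nor were 2 columns that match no sample.

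Each comparison was fitted on its own 4 libraries with edgeR 4.0.16 in R 4.3.3 (filterByExpr with min.count 10, TMM, glmQLFit and glmQLFTest), with Benjamini-Hochberg adjustment over all genes tested and a threshold of 0.05. The 95% intervals come from the standard error of the fit. CPM were scaled by TMM over all 6 libraries. GENCODE vM21, which held 37607 of the 39017 gene identifiers, gave lengths, coordinates and shared 100-base stretches. The script was tested on simulated data. Alternatives were DESeq2 1.42.0, its size factors, library totals, mitochondrial scaling, other filters, a replicate block, all groups in 1 fit, a fold threshold and each library left out. Related lists were named by rule: genes past the threshold with a mean of at least 100 counts, at most 4 per list and comparison, and isozymes with a mean of at least 10 counts. The genes and lists were chosen with earlier results of these data known. Genes named outside the rule are marked as such. The values of 1 gene that the rule would name are not reported here.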

Additional observations from a re-analysis of the deposited data

How the results depend on the processing

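In wild-type cells all 10 calls kept their direction and side of the threshold under DESeq2, other size factors, library totals, both filters, the replicate block, all groups in 1 fit and each library left out, and Gapdh alone changed when sequence-sharing genes were added (−0.0483, an alternative chosen after seeing the data). Scaled to mitochondrial mRNAs, 0 genes were called higher and 7 lower of the 10, 15308 of all genes were called, and the log2 fold changes were −1.67 for Slc2a1, −1.07 for Hk2, −1.36 for Pfkp, −0.0845 for Aldoa, −0.24 for Gapdh, −0.62 for Pgk1, −0.88 for Eno1, −1.18 for Pkm and −0.48 for Pdk1. With a fold threshold of 1 on the log2 scale, 2861 genes were called in all.

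After auxin, where 677 genes were called, that total was 290 with DESeq2, 219 with mitochondrial scaling, 55 with no filter, 432 with at least 10 counts in every library, 1235 with all 3 groups in 1 fit, 247 with the fold threshold, and 210 to 2736 with a library left out (245 and 210 without auxin replicates 1 and 2, 2736 and 1134 without untreated replicates 1 and 2). Of the 10 genes, 1 (Hk2) was called lower with all 3 groups in 1 fit, and with a library left out 0 to 1 were called higher and 0 to 2 lower. Fold changes that changed sign with mitochondrial scaling were −0.0759 for Slc2a1, −0.0345 for Aldoa, −0.15 for Pgk1, −0.10 for Eno1, −0.0844 for Pkm, −0.13 for Ldha and −0.15 for Pdk1. With no filter Pgk1 was at −0.0083 and Pdk1 at −0.0073, with all groups in 1 fit at −0.0055 and −0.0046, and with sharing genes added Gapdh was at 0.0047. With a library left out the values ran from −0.0371 to 0.27 for Slc2a1, −0.24 to 0.11 for Pfkp, −0.18 to 0.13 for Gapdh, −0.0268 to 0.0576 for Pgk1, −0.0268 to 0.16 for Eno1, −0.0265 to 0.10 for Ldha and −0.011 to 0.0405 for Pdk1. The cause was not tested.

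The replicate numbers were not shown to pair the libraries: deviations of same-numbered libraries correlated at 0.123 in the auxin and −0.0598 in the wild-type comparison, with 2 pairs each. With the number as a replicate block 1930 genes were called after auxin, among them 1 of the 10, Hk2 (−0.19, adjusted p = 0.0411), and the 10 calls in wild-type cells stayed. The 10 genes had 1296 or more counts in every library, and levels per kilobase of all 10 changed with the length used, 9 of them by more than the SD of the untreated libraries. With Eno1b counted in the enolase step, an alternative chosen after seeing the data, the share of Eno1 in the 6 libraries was 52.3% to 61.6% in place of 85.8% to 95.1%.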
